A study of Bos taurus with 14 samples.

Results

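A set of 33 bovine transcripts, present in every pool of Day-2 embryos and nearly gone from Day-4 embryos in all 3 environments, was followed library by library. Members were chosen by their measured levels. A gene had to reach at least 10 CPM (a gene's counts scaled to a column total of 1000000) in each of the 5 Day-2 libraries and to average under 1 CPM in each of the 3 Day-4 groups, and the genes the study tabulated individually or listed as histones were to be left out, which removed 0. Some of the study's term lists are shortened, so the histone check covered only the 23 genes that they show. Of the 27607 genes in the table, 5021 passed the Day-2 condition (the Day-2 set below) and 33 of these, or 0.657%, passed both. No table used here pairs a member's Ensembl ID with a gene name, so members are given by ID. The difference between days is therefore what selected them and is described without a test, whereas differences between the Day-4 groups were tested, with the limit that the rule holds every group mean under 1 CPM and so caps how far the groups can differ.

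Each library was made from a pool of 5 embryos that had been produced in vitro by maturation, fertilization and culture. The 5 Day-2 libraries hold embryos labelled at the 4-cell stage. The 9 Day-4 libraries hold embryos labelled at the 16-cell stage, 3 libraries per group: IVC embryos stayed in in vitro culture (labelled Day-4_IVP), and DRY and LACT embryos were moved on Day 2 into the oviducts of Holstein-Friesian cows that were, respectively, dried off at calving or milked, and were flushed out on Day 4. About 50 embryos were placed in 1 cow and a DRY or LACT pool came from a single cow, so cow and pool cannot be told apart. The sources used here state no cell type sort, and marker genes of cumulus, oviduct or blood cells could not be looked up without gene names.

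Early embryos run on RNA that the oocyte stored before ovulation. This maternal RNA is translated and destroyed while the embryonic genome is switched on, and in cattle the main wave of activation falls around the stage of the Day-4 embryos. A transcript that the embryonic genome does not make anew falls away with the maternal store, and one that is made anew keeps or regains its level. Poly(A) tails shorten as stored RNA is repressed or decays. The labels name polyA RNA as the molecule, whereas their protocol says that no poly(A) selection was done.

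Totals lay between 22711367 and 40357379 counts per library, and a level of 3 counts, the limit that a count of 0 allows, corresponded to 0.0743 to 0.132 CPM on Day 4. Such limits cover counting error only. The 10 genes of highest counts summed over all 14 libraries took 40.6% to 46.8% of a Day-4 library. On Day 2 they took 11.0% to 19.6%. Since 9 of the 14 libraries are from Day 4, this choice leans towards genes high on that day. CPM is a share of a library, so a loss of copies of one transcript and a gain of other RNA cannot be told apart. Levels of the Day-2 set sat 0.35 higher on the log2 scale for Day 4 against Day 2 after TMM scaling, which corrects for a few dominant genes, and 0.58 higher without those 10 genes. A second feature of the files touches the group results: IVC 1, DRY 3 and LACT 3 lay between the other 2 libraries of their group for 98.6%, 97.5% and 98.5% of the genes that averaged 5 CPM or more there. They were within 5% of the mean of the other 2 for 92.0%, 83.2% and 97.1% of these genes. Whether they are independent libraries was not tested, and every SD and p over 3 libraries per group treats them as such. The main group results are therefore given with and without them.

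The members made up a small part of the Day-2 embryo. Together they held 921 ± 63.2 CPM (SD, n = 5) on Day 2, with 843 in the lowest and 1018 in the highest pool. On Day 4 the sum was 15.4 ± 5.20 CPM for IVC pools, 11.1 ± 5.47 for DRY pools and 17.4 ± 8.51 for LACT pools (SD, n = 3 each). Without IVC 1, DRY 3 and LACT 3 the sums were 16.8, 9.02 and 13.97 CPM, so the order of LACT and IVC turned. The rule keeps the days apart in every member. A group mean under 1 CPM over 3 libraries holds each library under 3 CPM, and each Day-2 pool had to reach 10 CPM. The rule thus fixes a ratio above 3 between the lowest Day-2 and the highest Day-4 library of every member. The ratios of the 33 members ran from 3.76 to 51.2 with a median of 11.7.

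**Figure D1:**
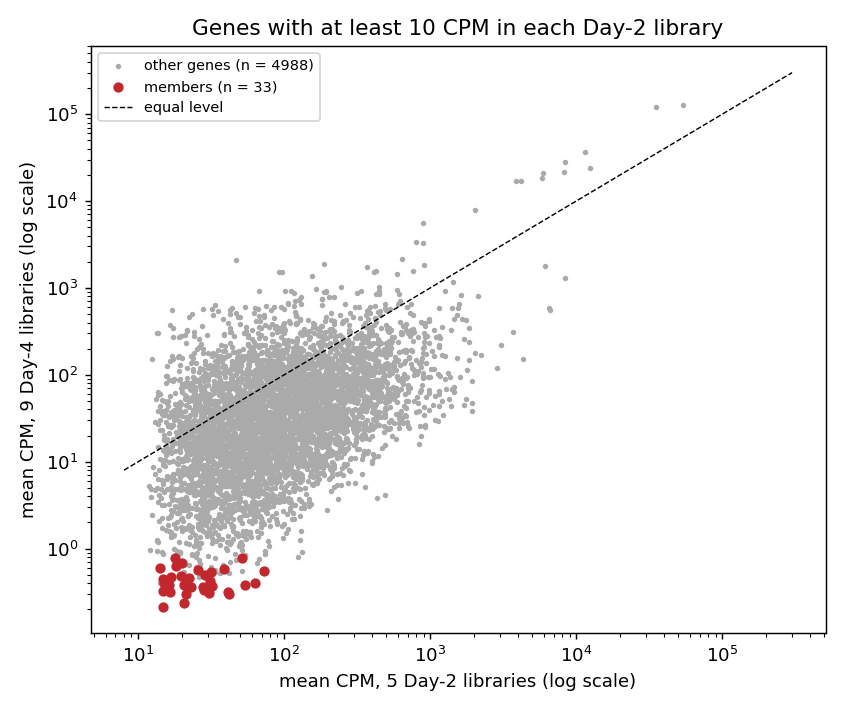
Mean CPM over the 9 Day-4 libraries against mean CPM over the 5 Day-2 libraries, both on log scales, for the 5021 genes with at least 10 CPM in each Day-2 library, with the 33 members in red and a dashed line at equal level. The members form the lower edge of the cloud at 0.216 to 0.791 CPM on Day 4, and none exceeded 72.9 CPM on Day 2.

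As a group the members were of modest level on Day 2. Whether their RNA was stored by the oocyte or made by the early embryo was not tested. Their mean Day-2 level ran from 14.1 to 72.9 CPM with a median of 22.2, against a median of 79.0 over the Day-2 set, and 46.9% of that set had a lower level than the highest member. A fixed ceiling of 1 CPM takes a larger fold to reach from a higher start, so the rule itself favours such genes. The Day-2 mean exceeded the mean of the 9 Day-4 libraries by 23.1 to 158 times, with a median of 58.0, where the Day-2 set as a whole had a median of 2.88. After TMM scaling the members' median was 46.5 and without the 10 highest genes it was 38.9. Differences of this size were not confined to members: another 259 genes of the Day-2 set were at least 23.1 times lower on Day 4, with a median of 97.8 CPM on Day 2 and of 2.77 CPM on Day 4. Of the 20 largest such ratios in the set, 9 belonged to members, and the largest of a gene outside the members was 156.

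A few genes marked the edges of the set. The members with the lowest Day-2 library were ENSBTAG00000021144 at 10.1 CPM, ENSBTAG00000038976 at 10.4 and ENSBTAG00000046440 at 10.5, and just outside stood ENSBTAG00000020887 at 9.83, ENSBTAG00000021134 at 9.82 and ENSBTAG00000038050 at 9.61. On the Day-4 side ENSBTAG00000004769 at 0.991 CPM in LACT, ENSBTAG00000002585 at 0.966 in IVC and ENSBTAG00000003491 at 0.966 in DRY were just inside. ENSBTAG00000011651 at 1.004 in IVC, ENSBTAG00000049599 at 1.02 in LACT and ENSBTAG00000007732 at 1.02 in IVC were just outside. The set is thus cut from a continuous range of levels.

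**Figure D2:**
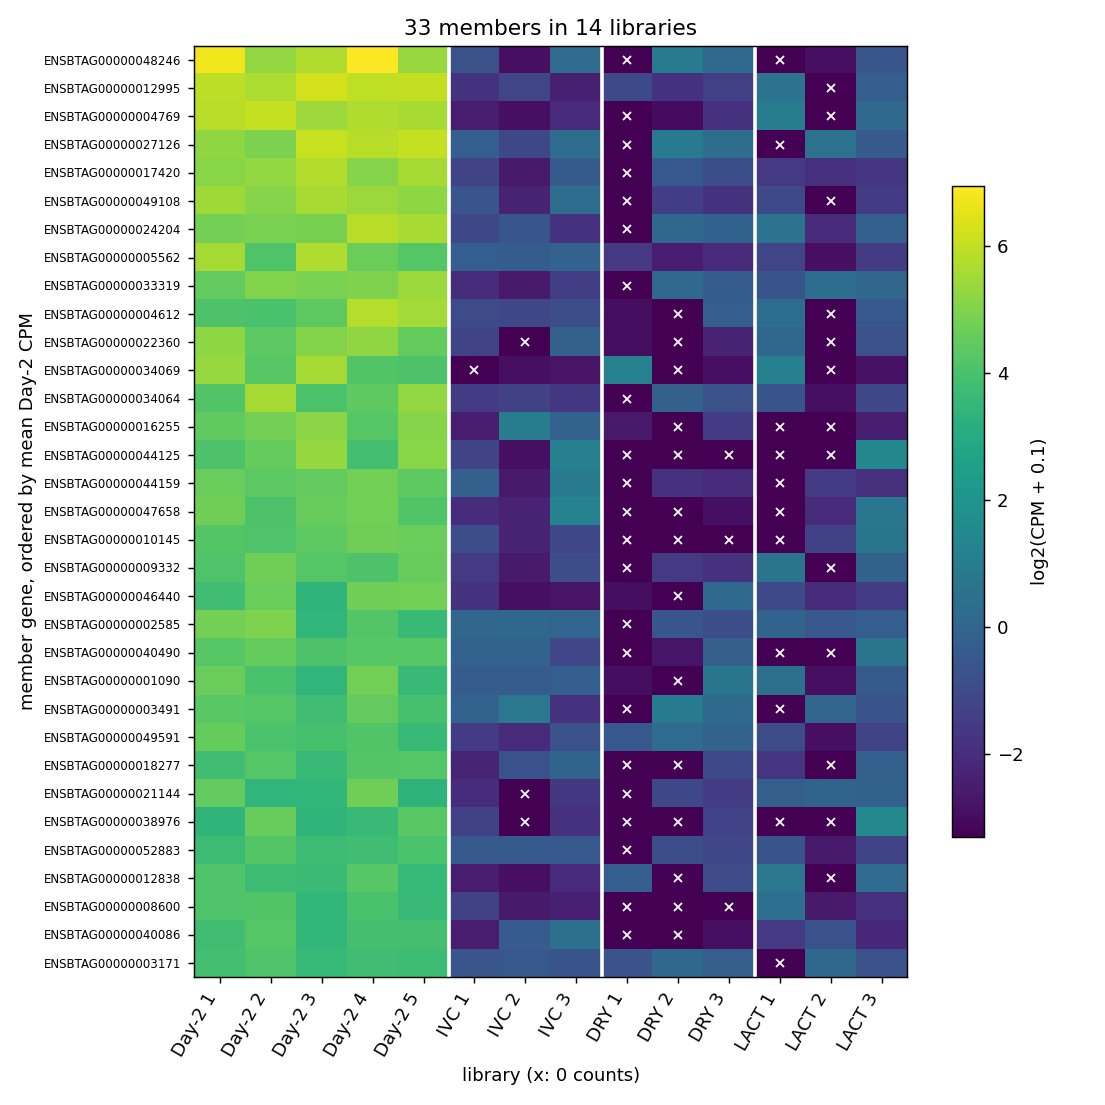
Heat map of log2(CPM + 0.1) for the 33 members (rows, ordered by mean Day-2 CPM) in the 14 libraries (columns), where a white x marks 0 counts. All Day-2 columns are at 10 CPM or more, and the Day-4 columns are dark but uneven, with 22 of 33 members at 0 in DRY 1 and 0 of 33 at 0 in IVC 3 and LACT 3.

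The most abundant member on Day 2, ENSBTAG00000048246, which the study's annotation lists under cell junction, stood at 107, 39.4, 53.2, 124 and 41.2 CPM in Day-2 pools 1 to 5. On Day 4 it was at 0.481, 0.0338 and 1.10 in IVC, 0, 1.71 and 1.05 in DRY, and 0, 0.0334 and 0.575 in LACT. Pools 1 and 4 were the high ones on Day 2, and the DRY range enclosed those of IVC and LACT. ENSBTAG00000012995 was steadier at 60.6, 52.0, 76.7, 62.8 and 63.7 CPM on Day 2 and had the largest ratio of Day 2 to Day 4, 158. It left 0.185, 0.338 and 0.0881 CPM in IVC, 0.383, 0.173 and 0.281 in DRY, and 1.41, 0 and 0.740 in LACT. LACT thus held its highest and its lowest Day-4 value.

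ENSBTAG00000004769, listed under DNA repair, the correction of damaged DNA on which rapidly dividing cells rely, was at 57.3, 65.9, 43.5, 53.6 and 48.7 CPM in the Day-2 pools. Its Day-4 counts were 2, 1 and 3 in IVC, 0, 1 and 5 in DRY, and 51, 0 and 25 in LACT. Nearly all of its residual signal sat in LACT 1 and LACT 3, at 1.94 and 1.03 CPM. ENSBTAG00000027126 kept the highest mean Day-4 level of the members, 0.791 CPM, from 37.6, 30.5, 67.7, 56.8 and 65.3 CPM on Day 2. It was at 0.740, 0.371 and 1.14 CPM in IVC, 0, 1.71 and 1.16 in DRY, and 0, 1.34 and 0.658 in LACT, so 1 library of each in vivo group had no count while another passed 1 CPM.

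ENSBTAG00000017420 had the widest gap between the days. Its lowest Day-2 pool, 33.8 CPM, was 51.2 times its highest Day-4 library, 0.660 CPM in IVC 3. ENSBTAG00000049108, listed under centriolar satellite, the granules around centrosomes that carry proteins to and from them, was at 34.1 to 48.9 CPM on Day 2. Its Day-4 values were 0.555, 0.101 and 1.14 CPM in IVC, 0, 0.273 and 0.176 in DRY, and 0.381, 0 and 0.247 in LACT. All values of DRY and LACT for it lay within the range of IVC or below it.

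Among the remaining abundant members, ENSBTAG00000024204, listed under chromosome, went from 28.0 to 57.5 CPM on Day 2 to 0.583 on average on Day 4, with 1.41 in LACT 1 and 0 in DRY 1. ENSBTAG00000033319 went from 22.5 to 42.5 CPM to an average of 0.545, with 1.20 in LACT 2 and 0 in DRY 1. ENSBTAG00000022360, listed under the high mobility group box, a fold that binds and bends DNA, went from 20.8 to 37.7 CPM to an average of 0.305. In IVC it was at 0.333, 0 and 0.793 CPM, in DRY at 0.0319, 0 and 0.105, and in LACT at 0.991, 0 and 0.493. Each group thus had a library at 0 for it.

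Several members divided the Day-2 pools unevenly, and not in one way. ENSBTAG00000004612, which carries WD40-like repeats, a scaffold for protein complexes, was at 56.0 and 45.5 CPM in pools 4 and 5 and at 16.1 to 21.3 in the other 3. ENSBTAG00000005562 was at 46.7 and 53.1 CPM in pools 1 and 3 and at 17.3 to 24.8 elsewhere. ENSBTAG00000034069 followed the same pools, with 40.9 and 47.9 CPM against 17.0 to 19.3. ENSBTAG00000034064 instead was highest in pools 2 and 5, with 46.9 and 39.4 CPM against 16.2 to 21.2. The coefficient of variation over Day-2 pools exceeded 40% in 9 members and was under 20% in 11. Its median was 22.9%, with 26.3% over the Day-2 set, and the steadiest member was ENSBTAG00000044159 at 20.4 to 26.9 CPM.

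What remained on Day 4 was patchy. Of the 297 pairs of a member and a Day-4 library, 67 were at 0 counts, 114 at 3 counts or fewer, and 39 at 1 CPM or more. No member was at 0 in all 9 libraries, 2 had a count in all 9, and 8 were under 1 CPM in all 9. Another 15 reached 1 CPM in exactly 1 library, 7 in exactly 2 and 3 in more. The highest value of any was 2.75 CPM. A mean under 1 CPM therefore stood for a uniform trace in some members and for a single library in others: the highest library held over 80% of its group's summed CPM for 2 members in IVC, 10 in DRY and 10 in LACT. Some of these shares rest on very few counts, and a single count must lie in 1 library. ENSBTAG00000047658 and ENSBTAG00000040086 had 0, 0 and 1 counts in DRY, and ENSBTAG00000016255 had 0, 0 and 2 in LACT. The same share was not counted over other genes.

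Counts of 0 fell unevenly over the libraries. In IVC 1 to 3, 1, 3 and 0 of the 33 members were at 0, in DRY 1 to 3 22, 14 and 3, and in LACT 1 to 3 11, 13 and 0. DRY 1 and DRY 2, the deepest Day-4 libraries at 31313997 and 40357379 counts, had the most. Over the Day-2 set the share at 0 had the same leaders, at 3.55% in DRY 1 and 1.69% in DRY 2 against 0.0597% in IVC 3. Summed over members, DRY 1 held 4.89 CPM, DRY 2 13.2 and DRY 3 15.2, whereas IVC ran from 12.2 to 21.4 and LACT from 7.85 to 24.2. DRY 1 was the lowest of the 9, and the 3 groups overlapped. DRY had the lowest group mean for 18 of 33 members, IVC for 8 and LACT for 7. The count for DRY was 18 after TMM scaling and 16 without IVC 1, DRY 3 and LACT 3, and 13 without DRY 1, where LACT had 11. The lowest group was not counted over the Day-2 set, so these counts show nothing particular to the members. Over the 13390 genes with 1 CPM in 3 or more libraries, all DRY libraries were below the rest in 8.66%. For IVC the share was 6.15% and for LACT 4.37%. The part of DRY 1 in the low DRY values was not tested further.

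**Figure D3:**
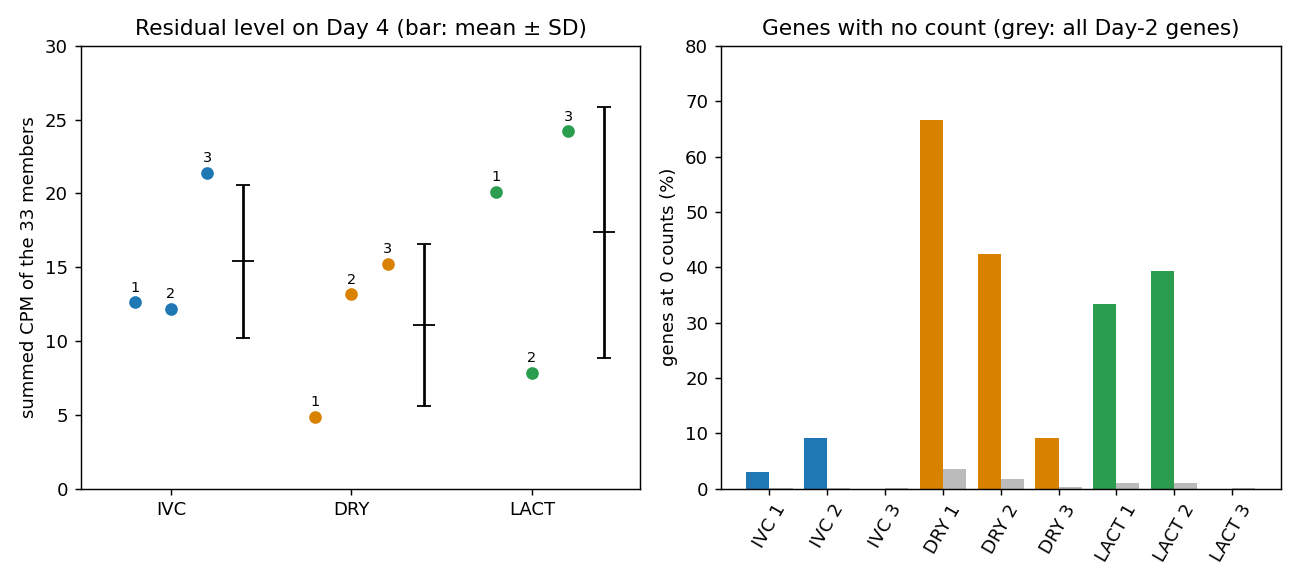
Left, summed CPM of the 33 members in each Day-4 library (points, with replicate numbers) with the group mean ± SD (n = 3 each). Right, the share of genes at 0 counts in each Day-4 library, coloured for the members and grey for the Day-2 set of 5021 genes; DRY 1 has 66.7% of members at 0 and IVC 3 and LACT 3 have 0.

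Whether the members' residual level differed between the environments was tested with edgeR's quasi-likelihood method on all 14 libraries and 13390 genes, with Benjamini-Hochberg adjustment over all of them. The filter on low counts asks for 1 CPM in 3 libraries, and all 33 members passed it, through the Day-2 pools that the rule had made high. Each gene's spread was also estimated from all 14 libraries, so the Day-2 pools help set the error for low Day-4 counts. Across the 3 groups 2 of 33 members were called at an FDR under 0.05, or 6.06%, where 8.69% of all genes tested were called. Between DRY and LACT it was 2, or 6.06%, against 4.15% of all genes, between LACT and IVC 0 against 3.41%, and between DRY and IVC 1, or 3.03%, against 6.16%. Since the members were held under 1 CPM and the other genes were not, these shares are set side by side and support nothing about the members. At an unadjusted p under 0.05 there were 9, 7, 7 and 9 members, or 27.3%, 21.2%, 21.2% and 27.3%, against 25.1%, 18.9%, 17.5% and 22.7% of all genes.

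The calls depended on the libraries in the fit. In a fit on the 9 Day-4 libraries alone, without a filter, edgeR's quasi-likelihood test called 0 members in each comparison, with a lowest adjusted p of 0.174, where 9%, 4%, 3.48% and 5.64% of 20609 genes were called. At an unadjusted p under 0.05 that fit had 0, 3, 0 and 4 members. These were 0%, 9.09%, 0% and 12.1% of the members, against 25.2%, 19%, 17.5% and 20.9% of genes. No call remained without the 3 in-between libraries, nor without any 1 of the DRY libraries. In the fit without the in-between libraries, of 12657 genes tested 0.553% were called across the groups, 0.19% between DRY and LACT, 0.079% between LACT and IVC and 0.482% between DRY and IVC, and of the members 0 in each by edgeR's quasi-likelihood test. The members at an unadjusted p under 0.05 were then 10, 9, 6 and 10, or 30.3%, 27.3%, 18.2% and 30.3%, against 10.5%, 8.86%, 7.3% and 11% of all genes. DESeq2 on all 14 libraries called 9, 6, 2 and 8 members, or 27.3%, 18.2%, 6.06% and 24.2%, against 21.1%, 14.1%, 12.6% and 17.9% of all genes. With observation weights, edgeR's likelihood ratio test had 7, 5, 2 and 5 members. These were 21.2%, 15.2%, 6.06% and 15.2% of the members, against 19.2%, 10.1%, 8.85% and 13.7% of all genes. The 3 members called in a pair by edgeR were lower in DRY, and so were the 6 and 8 called by DESeq2 in the DRY pairs.

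ENSBTAG00000008600 was at 0 counts in the 3 DRY libraries. It had 33, 2 and 4 counts in LACT 1 to 3, or 1.26, 0.0668 and 0.164 CPM, and 8, 2 and 2 counts in IVC. DRY lay below every other library, though by as little as 2 counts, and LACT 1 alone held 84.5% of the LACT sum. With DRY taken at 3 counts per library its level was at least 5.41-fold lower than the LACT mean, and at least 7.79-fold lower without the in-between libraries. Both bounds take the LACT mean as it stands, without its spread, and rest mainly on LACT 1. The adjusted p was 0.0311 for DRY against LACT and 0.0395 across the groups (edgeR). It was 0.273 for DRY against LACT without the in-between libraries, 0.174 in the fit on the 9 Day-4 libraries, and over all alternatives it ran from 0.000849 to 0.838, under 0.05 in 15 of 24. DRY was the lower side in all 24. On Day 2 the gene was at 17.4, 18.0, 11.1, 16.0 and 11.9 CPM.

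ENSBTAG00000010145, listed under coiled coil, a rod-like fold by which proteins pair, was likewise at 0 in every DRY library. LACT 1 to 3 had 0, 9 and 36 counts, or 0, 0.300 and 1.48 CPM, and IVC had 12, 3 and 8. LACT overlapped DRY through LACT 1, and 83.1% of the LACT sum came from LACT 3, 1 of the in-between libraries, though it exceeded both others here. The level in DRY was at least 6.46-fold lower than the LACT mean, a bound of 1.77 without the in-between libraries. These bounds also leave out the spread of LACT. The adjusted p was 0.0435 (edgeR), 0.464 without those libraries and 0.197 in the fit on the 9 Day-4 libraries. Over the alternatives it ran from 0.000731 to 0.929, under 0.05 in 8 of 24, with DRY the lower side in all 24. Day-2 values were 18.1, 17.1, 20.9, 26.7 and 24.0 CPM.

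The third call was ENSBTAG00000040086, with counts of 2, 20 and 29 in IVC 1 to 3, 0, 0 and 1 in DRY, and 6, 15 and 3 in LACT. In CPM these were 0.0740, 0.675 and 1.28, then 0, 0 and 0.0351, then 0.229, 0.501 and 0.123. DRY lay below both other groups, with 1 count between DRY 3 and IVC 1. DRY against IVC had an adjusted p of 0.0270 and the test across groups 0.0467 (edgeR). The first was 0.108 without the in-between libraries and 0.194 in the fit on the 9 Day-4 libraries. Over the alternatives it ran from 0.000812 to 0.675, under 0.05 in 15 of 24, with DRY the lower side in all 24. The Day-2 pools were at 13.7, 19.1, 11.0, 15.0 and 15.2 CPM.

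**Figure D4:**
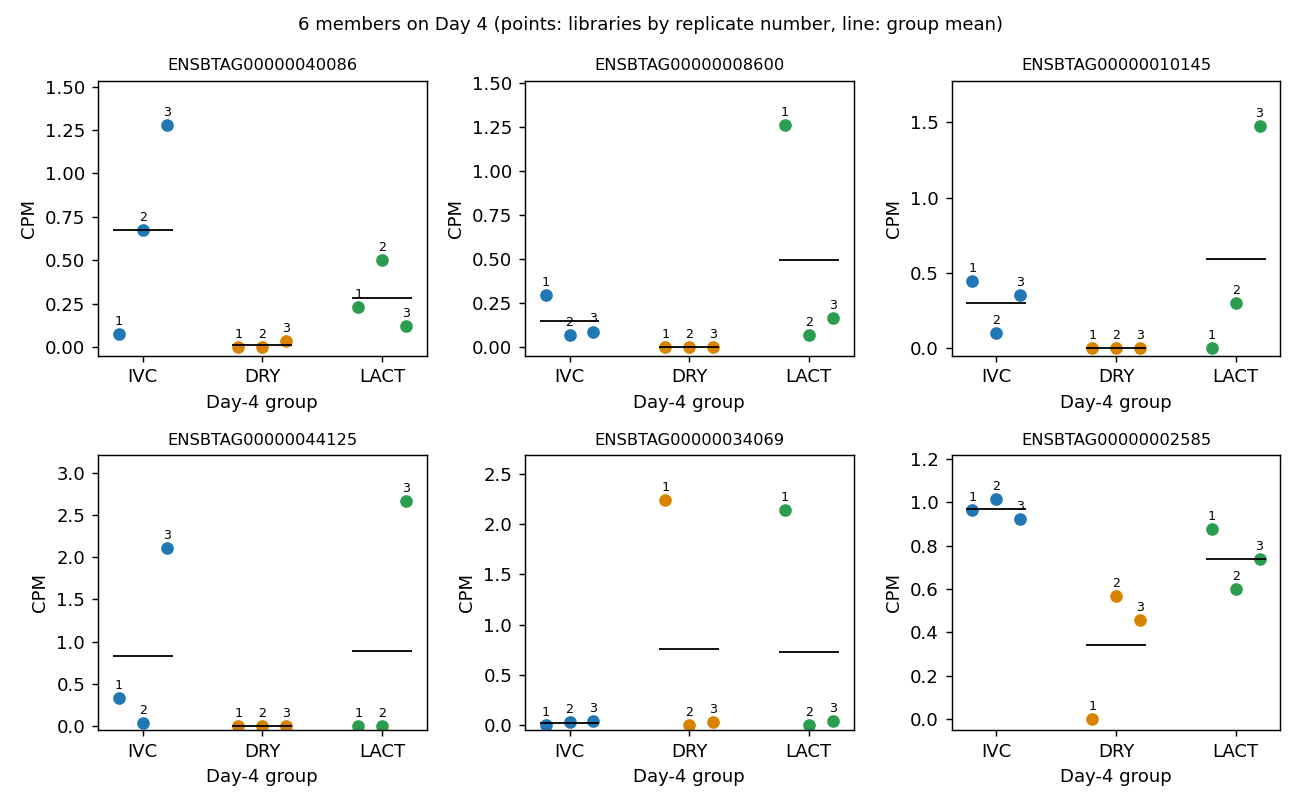
CPM in each Day-4 library (points, with replicate numbers; lines are group means, n = 3) of 6 members. The upper row has the 3 members called between Day-4 groups, at or near 0 in all DRY libraries, and the lower row has ENSBTAG00000044125 and ENSBTAG00000034069, whose group means come from single libraries, and ENSBTAG00000002585, whose 3 IVC libraries are the highest.

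Groups that did not overlap were counted in the same way, on CPM from column totals. All DRY libraries were below all of IVC and LACT in 3 members, or 9.09%, against 8.66% of the 13390 genes. All IVC libraries were above the rest in 3, or 9.09%, against 6.95%. The DRY libraries were highest in 1 member, or 3.03%, against 5.63%, and LACT in 1, or 3.03%, against 7.32%. IVC was below the rest in 0 members, against 6.15%, and LACT in 0, against 4.37%. Dropping the in-between libraries left 2 per group. DRY was then below the rest in 5 members, or 15.2%, against 10.7% of genes, and above in 1, or 3.03%, against 5.74%. IVC was above in 8, or 24.2%, against 8.84%, and below in 0, against 6.29%. LACT was above in 2, or 6.06%, against 7.8%, and below in 0, against 4.71%. The cap on group means applies to the members and not to the genes they are set against. ENSBTAG00000002585 ordered the groups completely, at 0.962, 1.01 and 0.925 CPM in IVC, 0.877, 0.601 and 0.740 in LACT and 0, 0.570 and 0.457 in DRY, from 27.9, 30.9, 10.7, 18.2 and 12.5 on Day 2. It was not called across the groups (adjusted p = 0.610, edgeR). Its order holds on column totals and is narrow at both edges. TMM factors were lower in LACT 1 than in IVC 3, at 0.868 and 0.917, which works against the order. They were also lower in DRY 2 than in LACT 2, at 0.926 and 1.02. Divided by these factors, the value in DRY 2 exceeds that in LACT 2, and LACT 1 and IVC 3 are nearly equal. The complete order therefore does not hold after TMM scaling. ENSBTAG00000005562 was at 0.740, 0.709 and 0.837 CPM in IVC, above 0.224 in DRY and 0.343 in LACT, the highest of each. ENSBTAG00000052883 was within 0.616 and 0.641 CPM in IVC, with 0.446 the highest in DRY and 0.534 in LACT. ENSBTAG00000049591, also listed under coiled coil, was higher in DRY at 0.607, 1.11 and 0.878 CPM, and ENSBTAG00000021144 higher in LACT at 0.763, 0.901 and 0.822.

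Other members owed a group mean to 1 library. ENSBTAG00000044125 had 48 counts in IVC 3 and 65 in LACT 3, with 9 and 1 in the other IVC libraries and 0 in the other 5. ENSBTAG00000034069, listed under nucleus, transferase and developmental protein, had 70 counts in DRY 1 and 56 in LACT 1, and 0 or 1 in each of the other 7. DRY 1 was otherwise the library with the fewest member counts. ENSBTAG00000038976, listed under sequence-specific DNA binding, had 67 counts in LACT 3 and 0 in LACT 1 and LACT 2. Its Day-4 peak of 2.75 CPM came nearest to Day 2, where its lowest pool was at 10.4.

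The in-between property of IVC 1, DRY 3 and LACT 3 was weaker at these low levels. They lay between the other 2 libraries for 25, 22 and 24 of the 33 members, or 75.8%, 66.7% and 72.7%, and for 63.5%, 57.6% and 50.8% of all genes with a group mean above 0 and under 1 CPM. Some exceptions were large. DRY 3 had 43 counts of ENSBTAG00000001090 where DRY 1 and DRY 2 had 1 and 0, and 30 counts of ENSBTAG00000046440 with 1 and 0 in the others. ENSBTAG00000040490 had 22 counts in DRY 3 against 0 and 2, and 35 in LACT 3 against 0 and 0. Repeating the selection without the 3 libraries gave 37 genes, 29 of them members, so 4 members owed their place to an in-between library.

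The remaining members with a high Day-4 mean were spread over the groups. ENSBTAG00000003491 was at 0.851, 1.62 and 0.176 CPM in IVC, 0, 1.81 and 1.09 in DRY, and 0, 0.935 and 0.534 in LACT. It had the smallest ratio of Day 2 to Day 4 among the members, 23.1, with 13.7 to 22.2 CPM on Day 2. ENSBTAG00000003171, listed under SH3, PDZ and ankyrin repeat domains, which bind other proteins, was at 0.528 to 0.608 in IVC, 0.511 to 0.991 in DRY, and 0, 0.968 and 0.493 in LACT. It was the member of lowest mean Day-2 level, at 14.1 ± 2.04 CPM (SD, n = 5).

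ENSBTAG00000001090 was even in IVC, at 0.703, 0.675 and 0.749 CPM, and uneven in LACT, at 1.30, 0.0334 and 0.658. Members not described by value ran between the same limits: ENSBTAG00000016255 was at 1.92 CPM in IVC 2 and at 0 in 3 libraries, ENSBTAG00000047658 at 2.25 in IVC 3 and 1.52 in LACT 3, ENSBTAG00000009332 at 1.45 in LACT 1, and ENSBTAG00000012838 at 1.56 in LACT 1 and 1.11 in LACT 3. ENSBTAG00000018277 stayed under 1 CPM in all 9.

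What the members share by function could be read for 13 of the 33, which the study's annotation tables list under at least 1 term. Those lists were drawn from genes the study had selected on these same samples and some are shortened, so they are no independent evidence and a missing entry carries no information. No term in a complete list held more than 1 member. ENSBTAG00000018277 was 1 of 9 genes listed as basal transcription factors, the proteins that place RNA polymerase II at promoters. It was at 13.9, 19.0, 12.4, 18.5 and 18.7 CPM on Day 2 and 0.317 on average on Day 4. The other 8 were at 61.6 to 903 CPM on Day 2 and at 2.26 to 210 on Day 4, so it was the lowest on both days, and its ratio of Day 2 to Day 4 was 51.9 where their median was 6.12 and their highest 27.3.

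The same ratio was set beside the other complete lists. ENSBTAG00000049108 had a ratio of 129 and was the lowest on Day 4 of 17 genes under centriolar satellite, whose other 16 had a median ratio of 8.02 and reached 59.5 CPM on Day 4. For ENSBTAG00000048246 it was 132, with a median of 11.0 over 18 others under cell junction, and for ENSBTAG00000022360 99.6, with 10.5 over the 12 others with a high mobility group box. ENSBTAG00000038976 had 39.0 among 20 genes under sequence-specific DNA binding, where the median of the others was 11.9. ENSBTAG00000047658 had 47.7 among 15 under nuclear speck, the nuclear bodies that store splicing factors, with 5.53 for the rest. In 3 of the lists another gene had a higher ratio than the member, reaching 200.1 for the high mobility group box, 124 for sequence-specific DNA binding and 52.5 for nuclear speck. Members were chosen for low Day-4 levels, so these differences follow from the rule.

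The members were the genes that met the Day-4 limit in all 3 groups at once. In the Day-2 set 227 genes averaged under 1 CPM in IVC, 212 in DRY and 113 in LACT. A further 99 genes passed in exactly 2 groups, with at least 1 CPM in IVC for 27, in DRY for 22 and in LACT for 50, and 255 passed in only 1. The other 4634, or 92.3% of the Day-2 set, kept at least 1 CPM in every group. Of the genes above 1 CPM in a single group, 9 of 27 in IVC, 5 of 22 in DRY and 12 of 50 in LACT reached it in each library of that group.

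The highest of these show how far the third group could differ. ENSBTAG00000048977 was at 70.2, 3.34 and 181 CPM in IVC, against at most 0.0381 in any DRY or LACT library, after 12.3 to 20.9 on Day 2. In IVC 1 and IVC 3 it was above Day 2, and the 3 IVC libraries spanned a wide range. ENSBTAG00000019630, at 7.03, 9.21 and 4.40 CPM in IVC, and ENSBTAG00000021048, at 4.92, 5.30 and 4.49, were more even. In DRY, ENSBTAG00000010119 was at 0, 19.0 and 12.5 CPM, ENSBTAG00000016462 at 0.0319, 11.2 and 8.92, and ENSBTAG00000002167 at 0.671, 10.3 and 6.25, so DRY 1 was low for all 3. In LACT, ENSBTAG00000020352 was at 13.5, 7.95 and 10.7 CPM and ENSBTAG00000009257 at 1.98, 18.2 and 10.03. ENSBTAG00000001706 was at 0, 0.0334 and 41.8, a mean set by LACT 3 alone. These 9 were picked for their values, and no test is given for them.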

How the data were processed

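RNA-seq was measured in 14 libraries of pooled bovine embryos. The authors deposited raw counts of reads per Ensembl gene; the submitters' notes name Trimmomatic 0.39, STAR 2.7.0b and featureCounts of Subread 2.0.3. Per the methods, reads were mapped to bosTau 9 and the library kit kept strand; the annotation release and the strand setting of the counting are not given in the sources used here. CPM were counts divided by column totals. Counts were tested with edgeR 4.0.16 in R 4.3.3: genes were kept if 3 or more libraries reached 1 CPM, with TMM, 1 coefficient per group, robust quasi-likelihood fit, FDR under 0.05. Alternatives included DESeq2 1.42.0 and leaving out libraries. Per the methods, each DRY or LACT pool came from 1 cow. No source used here says whether Day-2 and IVC pools came from separate cultures, so p-values measure the spread between these libraries, which may be technical.

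The members and lists were chosen with earlier results of these data known. Members were named by rank (12 highest on Day 2, 8 highest on Day 4), by a call between Day-4 groups or by a place next to a threshold. The others were named after their values were seen, for an annotation term, groups that do not overlap or a single high library. Of the Ensembl IDs 0 matched the symbol table, so gene lists and cell markers defined by symbol were not analysed here, and no positions or sequences are given.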

Additional observations from a re-analysis of the deposited data

Results flagged for a closer look

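ENSBTAG00000008600, ENSBTAG00000010145 and ENSBTAG00000040086 passed the test between Day-4 groups in the fit on 14 libraries, where members pass the filter on low counts through Day 2 and have Day-4 means capped by the rule. That fit also drew each gene's spread partly from the Day-2 pools, so the calls alone support no difference between the groups. The adjusted p-values (edgeR) were 0.0311 for ENSBTAG00000008600 and 0.0435 for ENSBTAG00000010145 in DRY against LACT, and 0.0270 for ENSBTAG00000040086 in DRY against IVC. Across the 3 groups they were 0.0395 for ENSBTAG00000008600 and 0.0467 for ENSBTAG00000040086. Each was lower in DRY, and none was under 0.05 without the 3 in-between libraries or in the fit on the 9 Day-4 libraries, where the pairs had 0.174, 0.197 and 0.194. Dixon's test was run on 34 sets of 5 Day-2 values, those of the 33 members and their sum, and 0 had a pool that stood apart. The usual chance rate of about 1 in 20 cannot be applied to these sets. The rule asked a minimum level of every Day-2 pool, so genes with a pool below it had been left out beforehand. The sum is also made of the same members. No conclusion about how alike the Day-2 pools are is drawn from the test.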

How the results depend on the processing

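The number of members depended on the limits: 84 with 5 CPM and 10 with 20 CPM as the Day-2 minimum, 6 with a Day-4 limit of 0.5 and 100 with 2 CPM, 123 with a Day-2 mean of 10 CPM, and 8 with every Day-4 library under 1 CPM. It was 19 with CPM after TMM, all of them members, and 12 without the 10 highest genes, 6 of them members. Leaving out 1 library gave 29 to 37, with 25 to 33 of the members kept; the fewest were kept without LACT replicate 2. The Day-2 sum became 799.6 CPM after TMM. Calls between Day-4 groups were not stable. Across the groups they were 0 at an FDR of 0.01 (369 of 13390 genes), 0 with no filter (1097 of 21790) and 1 with at least 10 counts in 3 libraries (1133 of 14988). They were 1 without the 10 highest genes (1094 of 14041), 9 by DESeq2 (21.1% of all genes) and 7 by the likelihood ratio test with observation weights (19.2%). For DRY against LACT they were 0 at an FDR of 0.01 (169 of 13390 genes), 6 by DESeq2 (14.1% of all genes) and 5 by the likelihood ratio test (10.1%). For LACT against IVC they were 2 by DESeq2 (12.6%) and 2 by the likelihood ratio test (8.85%). For DRY against IVC they were 0 at an FDR of 0.01 (247 of 13390 genes), 8 by DESeq2 (17.9%) and 5 by the likelihood ratio test (13.7%). All 3 calls (2, 2 and 1 members) became 0 without the 3 in-between libraries, in the fit on the 9 Day-4 libraries without filter and, chosen after seeing the data, on the 6 others. With 1 library left out the ranges were 0 to 4, 0 to 2, 0 to 1 and 0 to 4; each DRY library was needed for every call, so that 0 remained without DRY replicate 1, 2 or 3, and the 4 came without LACT replicate 2 (across) and LACT replicate 1 (DRY against IVC). With the replicate block 0 members were called in each, by edgeR's quasi-likelihood test. The labels state no pairing by number, and deviations of same-numbered libraries correlated at -0.02 to 0.14. Differently numbered libraries were not compared, so these correlations cannot exclude a shared batch. The cause of these changes was not tested. Lists defined by gene symbol were not run. Depth limits single values: 114 of 297 were at 3 counts or fewer.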
